A study of Homo sapiens with 48 samples.

Results

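The exons described here are the 204 cassette exons that control cells spliced in at an intermediate level, out of 24757 cassette exons measured in each library and 363278 splicing events of all kinds. They were chosen by the percent spliced-in (PSI), the percentage of transcripts of a gene that include the exon. An exon was taken if it was at least 28 nt and under 250 nt long, had a PSI and a coverage score above the lowest class in all 48 libraries, and had a mean PSI of 20 to 80 over the 16 control libraries. IMR90 ER:RAS cells are human lung fibroblasts that carry oncogenic HRAS fused to the ligand-binding domain of the oestrogen receptor, so that 4-hydroxytamoxifen (4OHT) switches RAS on and the solvent DMSO leaves it off. All groups carried this fusion. Cells were kept in DMSO or 4OHT for 6 days, transfected with siRNA and harvested 2 days later, and the siRNAs were non-targeting (siNT1 and siNT2, together siNT), against SF3B1 (siSF3B1-13 and -16) or against RBM39 (siRBM39-06 and -08). The 6 groups were DMSO siNT, 4OHT siNT, DMSO siSF3B1, 4OHT siSF3B1, DMSO siRBM39 and 4OHT siRBM39, each with 8 libraries, namely 4 replicates of each of 2 siRNAs. The study's methods state that replicates of its cell culture work were independent experiments, and the p-values measure the spread between these libraries. All cells derive from 1 line, IMR90.

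Exons of intermediate inclusion are the part of a transcript that a cell leaves undecided, and their 3' splice sites are often weak or compete with a neighbour. SF3B1 is the U2 snRNP subunit that clamps the branch point upstream of an exon, and RBM39 is a splicing factor related to the U2AF large subunit, which binds the pyrimidine tract next to it. Skipping an exon whose length is a multiple of 3 keeps the reading frame, whereas skipping another can shift it.

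The knockdowns were seen in the libraries themselves. In DMSO, SF3B1 stood at 309 to 392 CPM (counts scaled to a common library size) in siNT and at 30.2 to 34.95 in siSF3B1 libraries, and in 4OHT at 313 to 338 and 25.2 to 30.5. RBM39 stood at 157 to 184 CPM in DMSO siNT and 23.98 to 30.7 in DMSO siRBM39, and at 114 to 127 in 4OHT siNT and 13.7 to 18.3 in 4OHT siRBM39. Neither target's ranges overlapped between knockdown and control. RBM39 itself was at 275 to 318 CPM in DMSO siSF3B1, above its range in siNT. Gene counts summed to between 31467221 and 52734636 per library. Of 8 fibroblast markers, VIM (lowest library 4773 CPM) and COL1A1 (lowest 3039 CPM) were high throughout. In 4OHT siNT, 7 of the 8 lay below their range in DMSO siNT, VIM being the other, with medians of 25725 and 6138 CPM for COL1A1 and 1470 and 44.6 CPM for DCN in DMSO and 4OHT. The 8 summed to 51557 to 58665 CPM in DMSO siNT and 14281 to 15080 CPM in 4OHT siNT, and their part in the exon differences with RAS was not tested. In contrast, the epithelial CDH1 and EPCAM did not exceed 0.975 and 2.77 CPM, and the blood gene PTPRC did not exceed 0.195 CPM. KRT8 and KRT19, also epithelial, stood at 12.4 to 18.1 and 4.65 to 6.87 CPM in DMSO siNT. In DMSO siRBM39 they reached 27.1 and 10.4 CPM. The endothelial VWF reached 7.46 CPM in 4OHT siRBM39, and KRT18 and PECAM1 were not analysed here. 1 library stood apart. In replicate 4 of siRBM39-08 in 4OHT, the epithelial keratins KRT8 and KRT19 were at 52.9 and 25.2 CPM against at most 8.78 and 3.30 in the other 7 libraries of its group. Its mean PSI over the 204 exons, 38.6, lay inside the range of those 7, 38.4 to 40.2, but single exons did not, since 95 of the 204 lay outside the range of the other 7, against 30 to 54 for each of those 7 libraries. For example, an IL7R exon was at 58.1 there and at most 35.8 in the others, and a TRIP12 exon at 23.1 against at least 48.3, both picked out after their values were seen.

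The 204 exons lay in 177 genes. 153 genes held 1 of them, 21 held 2 and 3 held 3, and exons of 1 gene share transcripts and often reads. 122 were simple cassette events, 79 were complex (classes C1 to C3) and 3 were annotated events. Inclusion and exclusion reads over them summed to 23231 to 38713 per library, with a median of 63 to 113.5 reads per exon, and 179 exons had at least 20 reads in each library. Near the lower limit, TPP2 entered with a control PSI of 20.5 and ATXN2L with 20.4, while GPR107 (19.9) stayed outside. Near the upper limit, ZNF207 (79.7) and UBQLN1 (79.6) entered, while PLSCR3 and an IL6ST exon stayed outside at 80.01 and 80.1.

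The exons differed in build from the 20485 exons above 80 and the 2897 below 20 of the same length range. 113 of 204 (55.4%) had a length that is a multiple of 3, against 40.7% above 80 and 38.5% below 20. Their median length was 87 nt against 116 and 100 nt. They sat between longer introns, with medians of 1972 nt upstream and 2506.5 nt downstream, against 1188 and 1116 nt for exons above 80 and 1821 and 1938 nt below 20, so the longer introns were shared with exons of low inclusion. The median GC content of the exon was 49.8%, and 75% of the last 20 intron bases before it were pyrimidines, the same median as in the other classes. 186 exons could be placed on an annotated exon of GRCh37. Of these, 136 were coding, 18 partly coding, 18 in the 5' untranslated region, 8 in noncoding transcripts and 6 only in transcripts marked for decay, so 73.1% were coding against 97.9% above 80 and 24.2% below 20. All 186 were preceded by AG, and 183 were followed by GT and 3 by GC.

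The sequences below are those of the exons to which the results return. They were read from GRCh37 in the direction of the gene, the capitals mark the exon, and the lower case marks 30 intron bases before it and 6 after it. The TPM1 pair lies on the plus strand at chr15:63353397-63353472 and chr15:63353912-63353987, both BECN1 exons on the minus strand at chr17:40963673-40963815 and chr17:40965966-40966026, and ZNF207 on the plus strand at chr17:30688487-30688534. MARK3 lies on the plus strand at chr14:103966493-103966537. U2AF1, GANAB and FAT1 lie on the minus strand at chr21:44520563-44520629, chr11:62401782-62401847 and chr4:187511522-187511557. All 9 are coding exons.
TPM1 upstream exon: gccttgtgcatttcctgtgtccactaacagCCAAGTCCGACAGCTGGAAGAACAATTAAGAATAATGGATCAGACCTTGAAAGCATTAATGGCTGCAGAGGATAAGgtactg
TPM1 downstream exon: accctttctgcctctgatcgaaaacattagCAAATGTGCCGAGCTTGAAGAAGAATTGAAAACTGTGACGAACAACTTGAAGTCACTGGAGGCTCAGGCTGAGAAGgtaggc
BECN1 143-nt exon: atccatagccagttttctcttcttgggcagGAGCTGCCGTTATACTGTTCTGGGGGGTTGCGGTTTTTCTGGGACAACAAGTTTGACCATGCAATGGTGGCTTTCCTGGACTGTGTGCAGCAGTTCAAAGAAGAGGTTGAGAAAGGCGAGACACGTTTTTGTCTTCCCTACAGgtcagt
BECN1 61-nt exon: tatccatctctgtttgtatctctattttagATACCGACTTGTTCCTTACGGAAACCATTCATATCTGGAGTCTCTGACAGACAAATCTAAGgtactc
ZNF207 48-nt exon: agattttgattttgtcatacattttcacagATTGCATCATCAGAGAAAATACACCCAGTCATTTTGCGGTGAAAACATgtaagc
MARK3 45-nt exon: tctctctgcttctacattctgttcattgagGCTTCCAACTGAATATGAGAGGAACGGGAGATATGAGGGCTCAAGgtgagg
U2AF1 67-nt exon: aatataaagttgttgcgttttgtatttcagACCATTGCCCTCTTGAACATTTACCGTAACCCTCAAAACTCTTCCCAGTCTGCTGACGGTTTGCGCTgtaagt
GANAB 66-nt exon: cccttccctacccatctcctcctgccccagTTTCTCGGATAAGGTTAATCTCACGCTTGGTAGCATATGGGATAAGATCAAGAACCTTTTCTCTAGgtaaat
FAT1 36-nt exon: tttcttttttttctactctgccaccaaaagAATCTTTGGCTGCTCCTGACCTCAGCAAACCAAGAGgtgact

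Inclusion of these exons was lower in both knockdowns than in the controls. In DMSO siNT the mean PSI over the 204 exons was 50.8 ± 0.474, and with RAS active (4OHT siNT) it was 48.4 ± 0.673 (SD, n = 8 in each group here and below). It was 38.1 ± 1.53 in DMSO siSF3B1 and 34.8 ± 0.937 in 4OHT siSF3B1, and 41.5 ± 0.539 and 38.95 ± 0.593 in DMSO and 4OHT siRBM39. The libraries ran from 49.98 to 51.4, with a median of 50.9, in DMSO siNT, from 47.1 to 49.2 in 4OHT siNT, from 35.7 to 40.005 in DMSO siSF3B1 and from 33.5 to 35.9 in 4OHT siSF3B1. In siRBM39 they ran from 40.8 to 42.1 in DMSO and from 38.4 to 40.2 in 4OHT. No knockdown library reached the lowest siNT library, and within DMSO and within 4OHT the siSF3B1 and siRBM39 libraries did not overlap either. The siRNAs against SF3B1 differed, with means of 36.7 (siSF3B1-13) and 39.4 (siSF3B1-16) in DMSO and 33.98 and 35.6 in 4OHT (n = 4 each). Between 168 and 186 of the 204 exons lay between 20 and 80 in a siNT library, and between 116 and 133 did so in a 4OHT siSF3B1 library. The siNT libraries set these limits, so most exons had to lie inside them there, and a lower count elsewhere is no separate result.

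**Figure D1:**
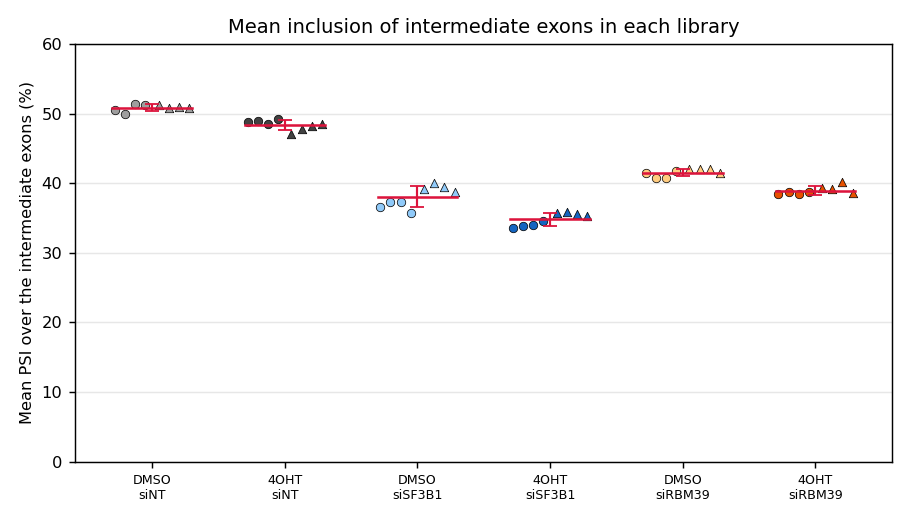
Mean PSI (%) over the 204 exons in each library, by group. Circles are siNT1, siSF3B1-13 and siRBM39-06, triangles are siNT2, siSF3B1-16 and siRBM39-08, and red bars show the group mean ± SD (n = 8). The 16 siNT libraries lie between 47.1 and 51.4 and the 32 knockdown libraries between 33.5 and 42.1.

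Most of the exons fell when SF3B1 was depleted. An exon was called where limma on logit PSI, fitted to 7673 cassette exons, gave an adjusted p under 0.05 and the means differed by at least 5 points. In DMSO, 128 of the 204 exons were lower with siSF3B1 and 14 were higher, against 25.7% lower and 1.04% higher of all exons tested. In 4OHT, 134 were lower and 16 higher, against 29% and 1.04%. The median difference was -12.47 points in DMSO and -12.91 in 4OHT, against -1.84 and -2.20 over all exons tested. Because the siNT libraries both chose the exons and served as controls, the exons were also chosen on siNT1 and compared with siNT2. Of 208 exons so chosen, 122 were lower and 13 higher in DMSO, and 124 and 14 in 4OHT. No share over all exons tested was computed with siNT2 as the only control, so no background stands beside these counts.

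With siRBM39, fewer were called, again mostly lower. In DMSO, 98 were lower and 16 higher, against 7.22% and 1.04% of all exons tested, with a median of -8.41 points against -0.22. In 4OHT, 99 were lower and 18 higher, against 8.21% and 1.13%, with a median of -9.35 points against -0.28. Without the 4OHT library that stood apart, 99 were lower and 17 higher. Chosen on siNT1 and compared with siNT2, 79 of 208 were lower and 10 higher in DMSO, and 81 and 10 in 4OHT. Again no share over all exons tested was computed for this choice, nor without that library.

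Fewer moved with 4OHT in the absence of a knockdown. Between 4OHT and DMSO with siNT, 37 exons were lower and 15 higher, against 1.12% and 0.482% of all exons tested, with a median of -1.999 points. The count of 52 depended on the libraries and the measure, with 30 called for the first siRNA of each target alone, 33 for the second and 90 by the read-based measure P_diff. P_diff leaves out the spread between libraries. No share over all exons tested was computed for these alternatives. The siNT libraries here both chose the exons and made up each side of the comparison, and they are also the controls of the knockdown comparisons above. The shares called differed by starting level. Of the 6122 tested exons above 80, which have little room to rise, 27.7% were called lower with siSF3B1 in DMSO, 5.91% with siRBM39 in DMSO and 0.425% with RAS. Of the 1001 tested exons below 20, which have little room to fall, 7.59%, 6.79% and 1.2% were lower. Exons entered the fit only with a PSI range of at least 5 points over the libraries, which all 204 had, and a change itself widens that range. Out of all 20485 exons above 80, 8.29%, 1.77% and 0.127% were called lower in these comparisons, and out of all 2897 below 20, 2.62%, 2.35% and 0.414%.

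**Figure D2:**
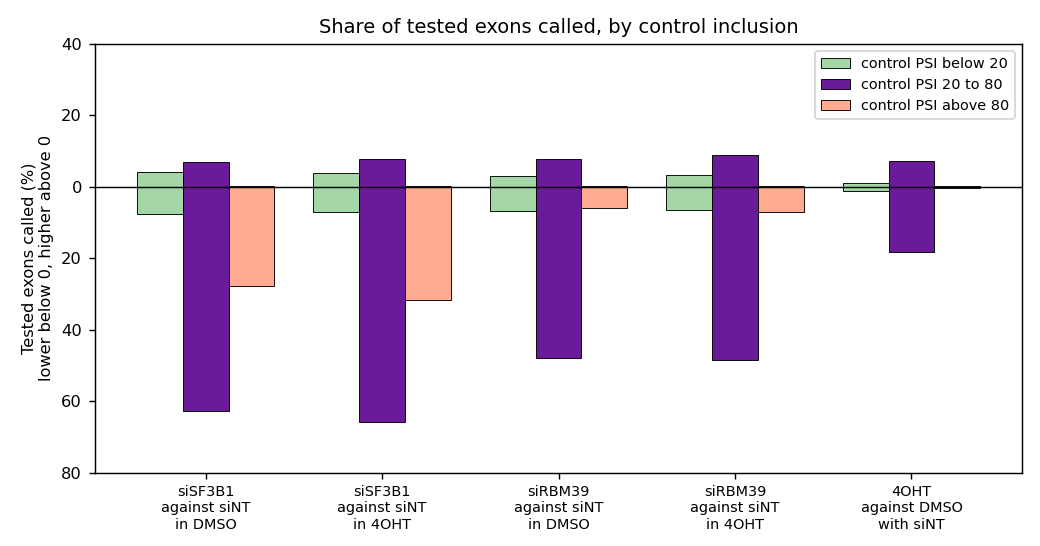
Share of tested exons called lower (below 0) or higher (above 0), in percent, for exons with a control PSI below 20 (1001 tested), from 20 to 80 (204) and above 80 (6122), in 5 comparisons. For siSF3B1 in 4OHT, 65.7% of the exons from 20 to 80 were lower, against 31.8% above 80 and 6.99% below 20.

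Within the 204, falls were spread over all starting levels. With siSF3B1 in 4OHT, 49 of the 81 exons with a control PSI of 20 to 40 were lower, 32 of 47 from 40 to 60, and 53 of 76 from 60 to 80. With siRBM39 in 4OHT the counts were 39, 26 and 34. Coding or not, 71 of 113 exons with a length that is a multiple of 3 were lower with siSF3B1 in 4OHT, and 63 of the other 91. With siRBM39 in 4OHT the counts were 53 and 46. Exons over 120 nt were lower in 33 of 64 cases with siSF3B1 in 4OHT, against 36 of 49 for exons of 28 to 60 nt. With siRBM39 this order was not seen, with 29 of 64 against 22 of 49 in 4OHT and 31 of 64 against 20 of 49 in DMSO. Of the 18 exons in 5' untranslated regions, 16 were lower and none higher with siSF3B1 in DMSO, and 14 were lower in 4OHT. With siRBM39, 10 were lower and 1 higher in DMSO, and 10 and 1 in 4OHT. No test of these splits was made.

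**Figure D3:**
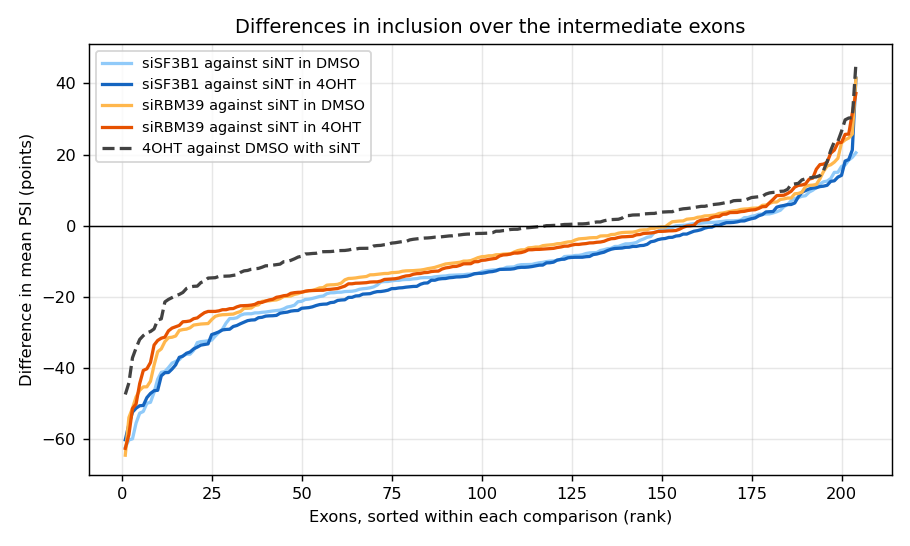
Difference in mean PSI (points) for each of the 204 exons, sorted separately in each of 5 comparisons. The medians are -12.47 and -12.91 points for siSF3B1 in DMSO and 4OHT, -8.41 and -9.35 for siRBM39, and -1.999 for 4OHT against DMSO.

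The deepest fall with siSF3B1 in DMSO was in BECN1, whose product Beclin 1 starts autophagosome formation. Its longer exon (143 nt) had a PSI of 71.1 to 85.0 (median 80.05) in DMSO siNT and 58.1 to 76.7 (median 67.8) in 4OHT siNT. In siSF3B1 libraries it was at 11.1 to 22.3 (median 17.3) in DMSO and 6.83 to 23.1 (median 10.5) in 4OHT. No library of either knockdown group overlapped its control, and the differences were -62.2 points (adjusted p = 2.2e-21) and -55.7 points (adjusted p = 1.7e-20). Exons named for the largest rises and falls of a comparison had to be without overlap there. For them the lack of overlap, here and below, is a condition of the choice and no separate result. It was also lower with siRBM39, by -53.9 and -51.3 points. The 61-nt BECN1 exon upstream of it had the deepest fall with siRBM39 in DMSO. It stood at 76.1 to 92.7 (median 82.2) in DMSO siNT and at 11.4 to 26.2 (median 18.045) in DMSO siRBM39, a difference of -64.4 points (adjusted p = 4.7e-19), and its differences with siSF3B1 were -60.2 and -52.3 points. Neither length is a multiple of 3. BECN1 counts were lower with siSF3B1 by a log2 fold change of -1.07 ± 0.04 in DMSO and -1.15 ± 0.04 in 4OHT (SE, edgeR, adjusted p = 7.6e-29 and 3.6e-30), and by -0.28 ± 0.04 and -0.45 ± 0.04 with siRBM39.

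PAPOLA, which encodes the poly(A) polymerase that adds tails to messenger RNA, had the deepest fall with siSF3B1 in 4OHT. Its 63-nt exon was at 58.2 to 84.8 (median 73.4) in DMSO siNT, 9.38 to 18.6 (median 14.97) in DMSO siSF3B1 and 7.32 to 37.8 (median 27.2) in DMSO siRBM39, so that neither knockdown overlapped the control. The differences were -59.8 and -48.1 points in DMSO and -60.1 and -50.0 points in 4OHT. Each rested on as few as 21 reads in a library.

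ZNF207, which encodes a spindle-assembly protein, had the deepest fall with siRBM39 in 4OHT. Its 48-nt exon stood at 79.0 to 93.6 (median 86.5) in 4OHT siNT, 28.9 to 43.8 (median 34.015) in 4OHT siSF3B1 and 15.8 to 31.4 (median 24.6) in 4OHT siRBM39. The differences from siNT were -51.2 points (adjusted p = 5.1e-17) and -62.5 points (adjusted p = 2.1e-18). In DMSO, siNT stood lower, at 62.5 to 79.7 (median 74.9), and the differences were -32.8 and -51.2 points. TBC1D7 and C16orf35 were also among the largest falls with siRBM39. The 81-nt exon of TBC1D7, a subunit of the TSC complex, went from 80.9 ± 4.77 to 34.7 ± 6.73 in DMSO (adjusted p = 7.1e-11), and with siSF3B1 it was lower by -24.1 points in DMSO and -20.96 points in 4OHT. The 75-nt exon of C16orf35, now NPRL3 and a subunit of GATOR1, went from 76.7 ± 4.95 to 32.4 ± 6.06 in 4OHT (adjusted p = 4.7e-12), and with siSF3B1 it was lower by -18.5 points in DMSO and -28.3 points in 4OHT.

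Other exons fell mainly with siSF3B1. The 68-nt 5' untranslated exon of C12orf23 (TMEM263) was at 64.8 to 76.4 (median 72.3) in DMSO siNT and 12.9 to 24.2 (median 18.2) in DMSO siSF3B1, without overlap. In DMSO siRBM39 it was at 63.9 to 80.5 (median 74.0), which overlapped the control, and its difference was 2.50 points (adjusted p = 0.76). The 104-nt exon of DPH5, an enzyme that modifies elongation factor 2, went from 70.6 ± 10.8 to 15.2 ± 3.91 with siSF3B1 in DMSO (adjusted p = 6.2e-16) and to 56.2 ± 7.04 with siRBM39 (adjusted p = 0.014). GAK, a kinase of clathrin uncoating, held 3 of the exons, which were picked out after their values were seen. Their differences with siSF3B1 in 4OHT were -40.2, -34.6 and -34.1 points, and with siRBM39 in 4OHT -4.63, -1.42 and -1.89 points, none of the latter called.

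Few exons rose with siSF3B1. The 156-nt exon of KAT5, which encodes the acetyltransferase Tip60, was at 26.8 to 55.0 (median 46.7) in 4OHT siNT and at 79.0 to 96.8 (median 85.8) in 4OHT siSF3B1. The groups did not overlap, and the difference of 41.5 points had an adjusted p of 2.6e-10. In DMSO the difference was 19.2 points and the groups overlapped. MAP2K7, a kinase that activates JNK, rose with siSF3B1 in DMSO at its 48-nt exon, from 56.2 to 79.4 (median 71.8) to 81.0 to 90.6 (median 89.2), a difference of 17.1 points (adjusted p = 2.7e-06). In 4OHT the same exon stood at 66.9 to 88.9 in siNT and 74.0 to 87.7 in siSF3B1, and the difference was -2.32 points (adjusted p = 0.45).

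The exons that rose with siRBM39 included one in GANAB, the catalytic subunit of glucosidase II, which trims glycans in the endoplasmic reticulum. Its 66-nt exon was at 16.9 to 22.6 (median 19.5) in DMSO siNT, 27.8 to 36.7 (median 32.9) in DMSO siSF3B1 and 51.5 to 69.3 (median 60.8) in DMSO siRBM39. None of these 3 groups overlapped. The difference with siRBM39 was 41.4 points (adjusted p = 8.1e-17) in DMSO and 37.2 points in 4OHT, and with siSF3B1 it was 13.3 and 10.6 points. TUSC3, an oligosaccharyltransferase subunit, rose by 23.3 points with siRBM39 in DMSO (adjusted p = 1.1e-07), and its 8.59 points in 4OHT did not pass (adjusted p = 0.053). Its effects in DMSO and 4OHT were not called different from each other.

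The direct comparison of the knockdowns uses none of the siNT libraries that set the limits of 20 and 80, although its own libraries took part in the choice through the required PSI and coverage. In DMSO, 77 exons were lower with siSF3B1 than with siRBM39 and 47 higher, against 20.4% and 2.96% of all exons tested. In 4OHT, 82 were lower and 50 higher, against 23.2% and 3.11%, and without the library that stood apart 81 and 48. No share over all exons tested was computed without that library. The median differences were -1.98 and -3.34 points. Thus 72 of the 204 exons were not called different between the knockdowns in 4OHT.

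The widest gap was in MARK3, a kinase of microtubule-associated proteins, at a 45-nt exon. In DMSO the exon was at 49.9 to 77.2 (median 58.2) with siNT, 5.6 to 21.4 (median 13.0) with siSF3B1 and 77.2 to 93.2 (median 88.1) with siRBM39. The siSF3B1 libraries all lay below the others, and the difference between knockdowns was -75.4 points (adjusted p = 1.1e-20). In 4OHT it was -70.4 points. Against siNT, the exon was lower with siSF3B1 by -49.6 and -47.1 points and higher with siRBM39 by 25.8 and 23.3 points. ABLIM3, an actin-binding LIM protein, showed the same order at its 48-nt exon, with 78.0 ± 7.79 in DMSO siNT, 53.3 ± 8.45 in siSF3B1 and 95.2 ± 2.06 in siRBM39. Its gap between knockdowns was -41.9 points in DMSO and -45.0 points in 4OHT.

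PUF60, U2AF1 and PFKM held exons with the opposite order. PUF60 is a splicing factor that binds pyrimidine-rich sequence next to U2AF. Its 51-nt exon was at 36.4 to 49.5 (median 45.8) in DMSO siNT, 50.1 to 69.2 (median 59.6) in DMSO siSF3B1 and 9.16 to 22.2 (median 14.9) in DMSO siRBM39, with no overlap among the 3. The knockdowns differed by 45.7 points (adjusted p = 1.2e-16) in DMSO and 42.9 points in 4OHT. U2AF1 encodes the small U2AF subunit, which reads the AG at the 3' splice site. Its 67-nt exon was at 45.7 to 65.4 (median 58.7) in 4OHT siNT, 65.5 to 83.8 (median 75.8) in 4OHT siSF3B1 and 25.9 to 45.4 (median 38.9) in 4OHT siRBM39, a gap of 38.1 points between knockdowns (adjusted p = 1.3e-12). U2AF1 has a near-identical copy in some genome assemblies, so its reads are uncertain. This order was not that of most splicing-factor exons, since of the 11 in such genes 2 were higher and 6 lower with siSF3B1 than with siRBM39 in DMSO, and 3 higher and 5 lower in 4OHT. The 93-nt exon of PFKM, the muscle form of phosphofructokinase, differed by 31.001 points in DMSO and 28.5 points in 4OHT in the same direction.

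**Figure D4:**
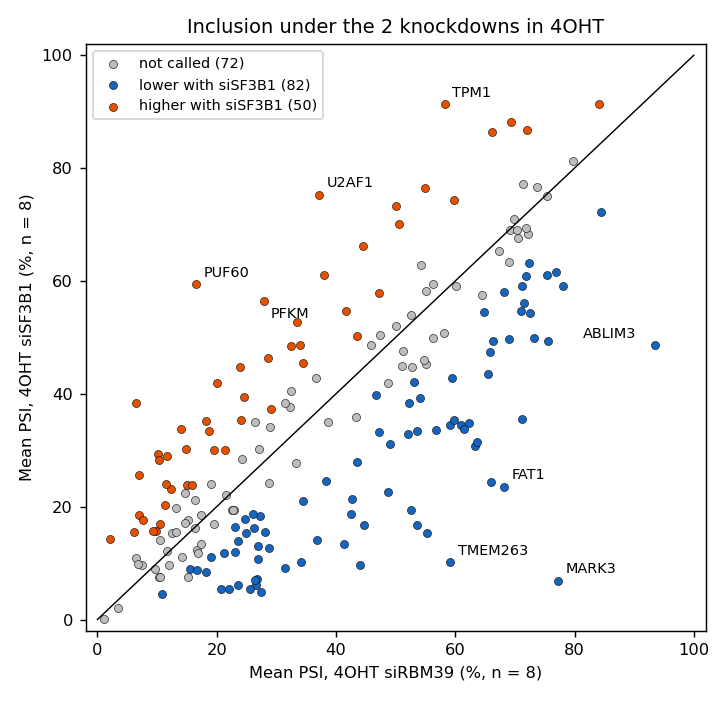
Mean PSI (%) of each of the 204 exons in 4OHT siRBM39 (horizontal) and 4OHT siSF3B1 (vertical), n = 8 libraries each, with the line of equal inclusion. 82 exons (blue) were called lower with siSF3B1, 50 (orange) higher and 72 (grey) neither, and MARK3 (77.3 and 6.90) and PUF60 (16.5 and 59.4) lie far from the line on opposite sides.

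The largest differences with RAS activation, in either direction, were both in TPM1. TPM1 encodes tropomyosin, which lies along actin filaments, and its 2 neighbouring 76-nt exons printed above are mutually exclusive. They lie 439 nt apart and have the same base at 43 of 76 positions. With siNT, the upstream exon went from 29.7 to 43.04 (median 35.8) in DMSO to 77.5 to 86.7 (median 81.7) in 4OHT, while the downstream exon went from 61.2 to 69.1 (median 66.1) to 13.2 to 21.4 (median 18.3). The groups did not overlap, and the differences were 45.6 points (adjusted p = 6.1e-16) and -47.4 points (adjusted p = 1.0e-18). The PSI values of the pair summed to between 95.6 and 114.5 in each library, so they are not independent measurements. The knockdowns moved the pair in opposite directions, since the upstream exon was higher by 20.5 points with siSF3B1 and lower by -15.2 points with siRBM39 in DMSO, and by 9.44 and -23.6 points in 4OHT. TPM1 counts were lower by a log2 fold change of -1.03 ± 0.08 with siSF3B1 in 4OHT and did not pass for RAS (0.14 ± 0.08, SE, edgeR, adjusted p = 0.090).

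SVIL, FAT1 and UAP1 were lower in 4OHT. The 81-nt exon of SVIL, an actin- and membrane-binding protein, went from 43.7 to 83.7 (median 72.7) in DMSO siNT to 20.7 to 42.6 (median 29.5) in 4OHT siNT, a difference of -37.1 points (adjusted p = 2.4e-06). With siNT1 alone it was -29.5 points and did not pass. FAT1 is a giant cadherin, and its 36-nt exon went from 76.5 to 85.7 (median 82.2) to 38.2 to 53.0 (median 48.4), a difference of -34.3 points (adjusted p = 3.4e-10). The FAT1 exon was lower with siSF3B1 by -14.3 and -24.2 points and higher with siRBM39 by 6.66 and 20.4 points. UAP1, an enzyme that makes UDP-N-acetylglucosamine, was lower in 4OHT by -31.9 points at its 48-nt exon.

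Exons of C14orf153, TSC22D1, RAI14 and H2AFY were higher in 4OHT. The 67-nt exon listed under C14orf153 lies in KLC1, a kinesin light chain, on the reference used here. It went from 16.7 ± 6.34 in DMSO siNT to 47.03 ± 8.33 in 4OHT siNT (adjusted p = 4.6e-07). The 146-nt exon of TSC22D1, a transcription regulator, went from 44.8 ± 9.94 to 75.1 ± 4.48 (adjusted p = 3.6e-07). For RAI14, an actin-binding protein, the 87-nt exon went from 17.1 to 27.9 (median 25.5) to 47.2 to 59.2 (median 53.0), a difference of 29.8 points (adjusted p = 1.6e-08). RAI14 was a further 17.3 points higher with siRBM39 in 4OHT (adjusted p = 0.00011), and in DMSO its 5.03 points were not called. The siRBM39 effect was called different between 4OHT and DMSO for 0 of the 204 exons, so RAI14 shows no called difference between them.

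**Figure D5:**
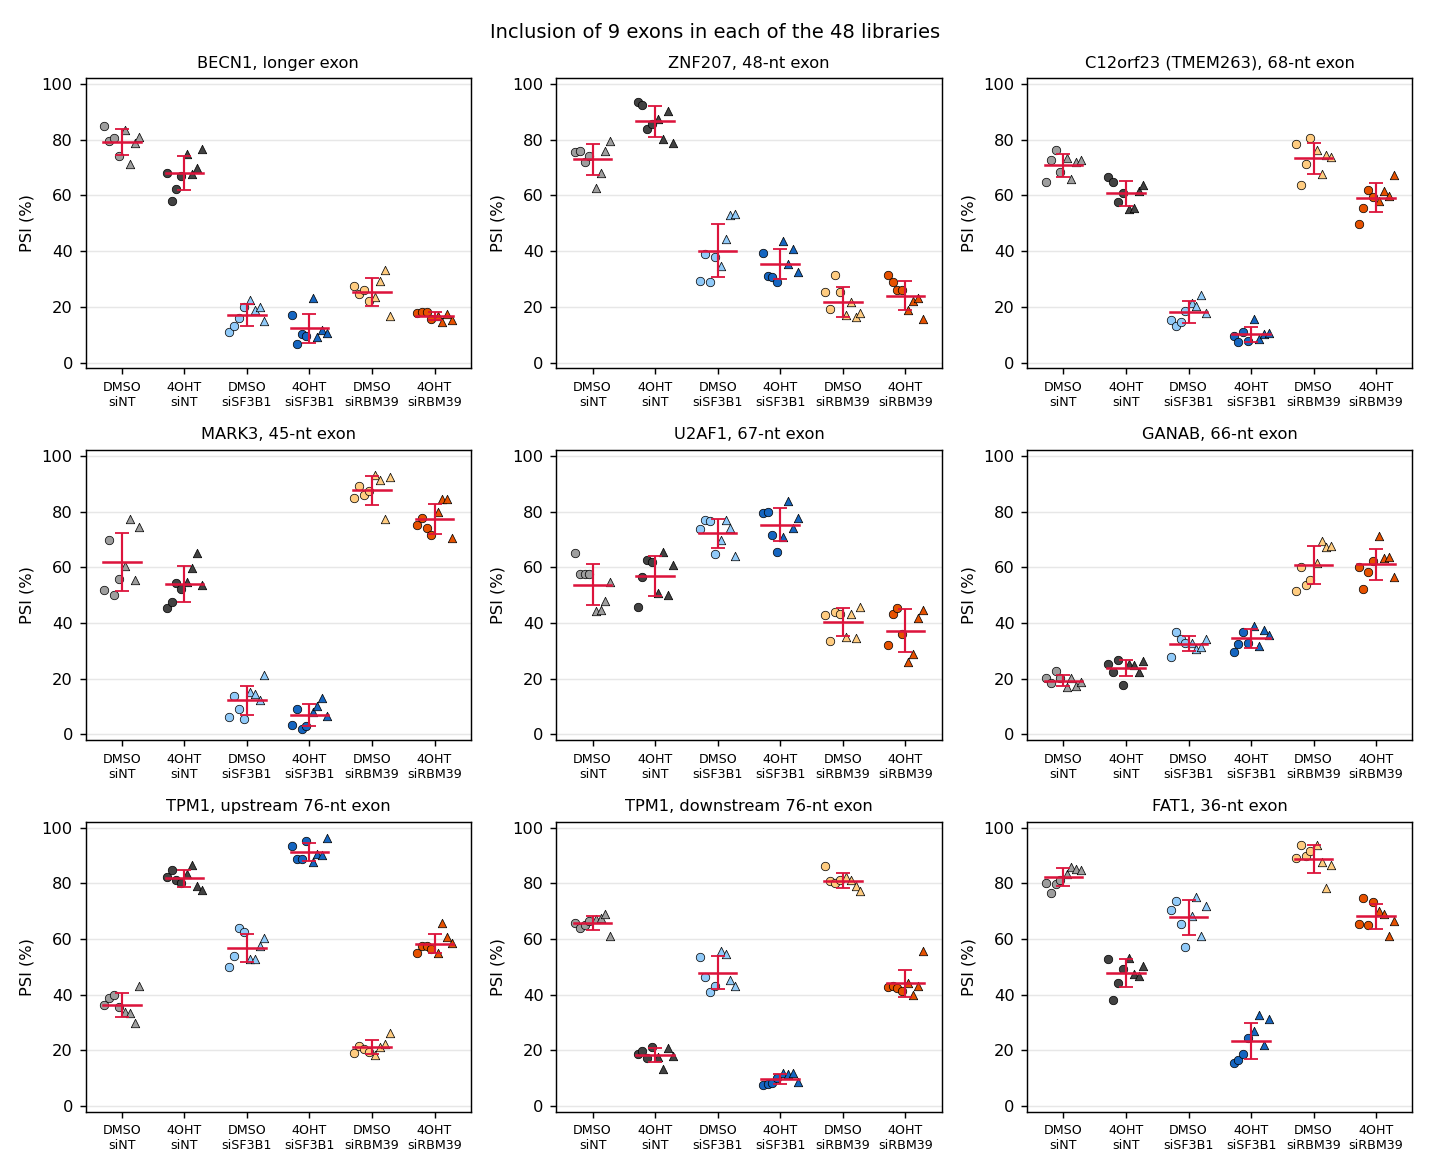
PSI (%) of 9 exons in each of the 48 libraries, by group. Circles are siNT1, siSF3B1-13 and siRBM39-06, triangles the other siRNA of each target, and red bars the mean ± SD (n = 8). BECN1 and ZNF207 are low in both knockdowns, TMEM263 is low in siSF3B1, and the TPM1 exons mirror each other, with means of 81.9 and 18.3 in 4OHT siNT.

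In 7 genes, TPM1 among them, one exon was called higher and another lower in at least 1 of the 5 comparisons with siNT or DMSO. The others were COL5A1, H2AFY, P4HA1, MBD1, POSTN and ACIN1, and they were picked out after their values were seen. COL5A1 encodes a chain of type V collagen and has a pair of 69-nt exons. The first was at 21.2 ± 2.48 in DMSO siNT and 64.8 ± 4.86 in 4OHT siRBM39, and the second at 73.4 ± 2.89 and 29.03 ± 5.42. The first was higher in each knockdown, by 15.04 and 21.3 points with siSF3B1 and 24.1 and 31.7 points with siRBM39, and by 11.9 points with RAS. In H2AFY, which encodes the histone variant macroH2A1, the 100-nt exon was higher in 4OHT than in DMSO with siNT by 23.6 points and the 87-nt exon lower by -28.97 points. With siRBM39 the 100-nt exon was higher by 24.7 and 25.7 points. In P4HA1, a subunit of the collagen prolyl 4-hydroxylase, the differences with siSF3B1 in 4OHT were 11.01 and -17.4 points, and those with RAS, -0.21 and 3.71 points, were not called. MBD1, a methyl-CpG-binding protein, had differences of 12.5 points at its 165-nt exon and -22.8 points at its 93-nt exon with siSF3B1 in 4OHT. POSTN encodes the matrix protein periostin, and with RAS its 84-nt exon was lower by -6.79 points and its 90-nt exon higher by 12.9 points. For ACIN1, the differences with siSF3B1 in 4OHT were -6.58 and 12.6 points at exons of 62 and 120 nt.

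The exons were also grouped by what their genes do, with no test of the groups. Over all 204, 65.7% were lower and 7.84% higher with siSF3B1 in 4OHT, 48.5% and 8.82% with siRBM39 in 4OHT, and 18.1% and 7.35% with RAS. 11 exons lay in genes of splicing factors, and with siSF3B1 in 4OHT 8 were lower and 3 higher, with a median of -12.25 points against -12.91 over the 204. Those higher were in PUF60, U2AF1 and RBM6. With siRBM39 in 4OHT 4 were lower and 1 higher, the latter being HNRNPA2B1, whose 36-nt exon was higher by 18.97 points in DMSO and 13.4 points in 4OHT. With RAS none of the 11 was called by limma, 2 had an unadjusted p under 0.05, and 2 passed P_diff. Such a p was found for 46.6% of the 204 and 9.46% of all exons tested, and P_diff passed 90 of the 204. 12 exons lay in genes of the cytoskeleton and of adhesion. With RAS 7 of them were lower and 1 higher, with a median of -14.09 points against -1.999, and 2 genes contributed a pair each to these calls (SVIL and TPM1). 14 exons lay in genes listed for transcription and chromatin. Among them was ZNF207, described above as encoding a spindle-assembly protein, whose exon was lower in both knockdowns. With siSF3B1 in 4OHT 10 were lower and 3 higher, and with siRBM39 in 4OHT 6 were lower and 3 higher. The shares lower were near those over the 204, and the shares higher, each resting on 3 exons, were above them. Of 10 exons in genes of kinases, phosphatases and GTPase signalling, 6 were lower and 1, in MAPK14, higher with siSF3B1 in 4OHT. Both were near the shares over the 204. Membrane trafficking had 4 exons, of which SEC16A and SYNRG were higher with RAS, and the list of apoptosis, cell cycle and DNA repair had 1, in BCLAF1, which was lower with siSF3B1 by -17.7 and -12.6 points.

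Of the genes listed for a textbook alternative exon, 9 held 11 of the exons. They were matched by gene name, so an exon given here need not be the textbook one. MYL6, the essential light chain of non-muscle myosin, had a 45-nt exon with at least 665 reads in each library. It was at 63.2 to 72.3 (median 65.8) in DMSO siNT, 47.2 to 55.6 (median 51.8) in 4OHT siNT and 35.4 to 44.6 (median 39.015) in 4OHT siSF3B1, and these groups did not overlap. The 130-nt exon of ITGA6, integrin alpha 6, was lower with siRBM39 by -29.4 and -26.9 points, and by -17.6 points with RAS. MAP4K4, a kinase upstream of JNK, was lower at its 192-nt exon by -10.9 and -17.0 points with siSF3B1 and -16.7 and -23.6 points with siRBM39. Its 162-nt exon was lower by -14.6 and -14.7 points with siRBM39. For the 129-nt exon of PICALM, a clathrin adaptor, neither siRBM39 difference (4.04 and 7.43 points) was called. The 67-nt exon of CTTN, which encodes the actin-branching protein cortactin, was lower in 4OHT by -10.9 points.

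The siSF3B1 effect was called different in 4OHT and in DMSO for 3 of the 204 exons, against 0.613% of all exons tested. WSB1, an E3 ligase subunit whose exon had as few as 18 reads, had a PSI of 53.1 ± 11.5 (DMSO) and 9.01 ± 2.41 (4OHT) with siNT, and of 0.983 ± 1.33 and 0.168 ± 0.312 with siSF3B1. Its effects were -52.1 and -8.84 points, and since siNT in 4OHT already stood at 9.01, a deeper fall was hardly possible there, so that the difference of 43.3 points is given as a description. The effects on MAP2K7 differed by -19.4 points (adjusted p = 0.0081) and those on ZNF207 by -18.4 points (adjusted p = 0.014). These calls were not stable, as that of MAP2K7 was lost with the second siRNAs alone, that of ZNF207 with either siRNA set alone and without replicate 2 or replicate 3, and the second siRNAs alone gave 0 of the 204. The read-based P_diff, which leaves out the spread between libraries, passed 53 of the 204 for siSF3B1. It was not run on the other exons, so no share over all exons tested goes with its counts. For siRBM39, limma called 0 of the 204, against 0.0391% of all exons tested. An unadjusted p under 0.05 was found for 21 (10.3%), against 4.82% of all exons tested, and 43 passed the read-based P_diff.

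Counts of the host genes moved in both directions. 170 host genes were among the 9991 genes tested with edgeR. With siSF3B1, 72 were higher and 56 lower in DMSO, against 36.5% and 36.2% of all genes, and 70 and 57 in 4OHT, against 39.4% and 37.6%. With siRBM39, 41 were higher and 39 lower in DMSO, against 23.9% and 22.2%, and 51 and 41 in 4OHT, against 32.2% and 24.3%. With RAS 66 were higher and 59 lower, against 39% and 39.1%. Host genes were also split by the fate of their exon. With siSF3B1 in 4OHT, 56 genes held a lower exon whose length is not a multiple of 3. Their median log2 fold change was 0.10, and it was 0.03 for the 66 with a lower exon whose length is one. The exons were split by length alone, coding or not, so these medians do not measure shifts of the reading frame. Bulk RNA cannot tell fewer transcripts per cell from fewer cells that express a gene.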

How the data were processed

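RNA-seq of 48 libraries in 6 groups of 8 was used, with 4 replicates for each of 2 siRNAs per target. The authors aligned reads with vast-tools version 2 to an annotation named hg19 and merged lanes, and their deposited event table gives inclusion as a percent (PSI) with a quality string holding the coverage class and reads. The authors deposited gene counts from the same alignments, which were used unchanged. CPM here were scaled by TMM. The event coordinates lie in GRCh38 and were paired with GRCh37 through an annotation lifted between both, and sequences come from GRCh37. 4 libraries of siNT2 in 4OHT have siNT2 in the title and siNT1 in the treatment label, which leaves their group the same.

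PSI was squeezed (0.01 + 0.98 × PSI/100), taken to logits and fitted with limma 3.58.1 (R 4.3.3), 1 mean per group, over 7673 cassette exons with a PSI range of at least 5. Calls needed a Benjamini-Hochberg adjusted p under 0.05 and 5 points. Genes with at least 10000 counts in total were fitted with edgeR 4.0.16 (quasi-likelihood, TMM), with DESeq2 1.42.0 as an alternative. P_diff, a read-based alternative, needed a probability of 0.8 of a difference. Both fits were tested on simulated data. Replicate numbers did not pair libraries: over 264 same-numbered pairs the correlation of deviations was -0.0517 to 0.0383.

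Exons were named by a rule. In each comparison it took the 4 largest rises and 4 largest falls among called exons whose groups did not overlap. At least 20 reads in each library were needed, with 1 exon per gene and direction. It also took called interactions and exons in genes listed for a textbook alternative exon. The exons, rule and gene lists were chosen with earlier results of these data known.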

Additional observations from a re-analysis of the deposited data

Results flagged for a closer look

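In 14 of 204 sets of 8 libraries, 1 library lay apart from the other 7 by Dixon's test, and chance gives about 1 in 20. Replicate 4 of siRBM39-08 in 4OHT, the library with high KRT8 and KRT19, was the one apart for the 100-nt H2AFY exon (PSI 59.3), for MAP2K7 (55.22) and for the downstream TPM1 exon (55.77). Over all 204 exons it lay outside the range of the other 7 libraries for 95. The part of those keratins in the exon values was not tested.

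Among siNT libraries, replicate 3 of siNT1 in 4OHT was apart for the 61-nt BECN1 exon (57.14) and replicate 1 of siNT2 in 4OHT for TBC1D7 (91.11). For the 192-nt MAP4K4 exon, it was replicate 4 of siNT1 in DMSO (55.43) and replicate 2 of siNT1 in 4OHT (60.54). In 4OHT siSF3B1, the libraries apart were replicate 1 of siSF3B1-16 for C12orf23 (15.79), replicate 2 of siSF3B1-13 for COL5A1 (63.33), replicate 2 of siSF3B1-16 for MAP2K7 (87.72) and replicate 3 of siSF3B1-13 for UAP1 (14.29). In DMSO they were replicate 1 of siSF3B1-16 for H2AFY (40.37), replicate 2 of siSF3B1-13 for PICALM (14.29) and replicate 1 of siRBM39-06 for PICALM (45.95).

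The siSF3B1 effect differed between 4OHT and DMSO by a limma interaction for MAP2K7 (-19.42 points), ZNF207 (-18.42 points) and WSB1 (43.31 points). For WSB1 the control PSI in 4OHT was 9.01, which leaves little room to fall, and MAP2K7 and ZNF207 lost the call under alternatives given below.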

How the results depend on the processing

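Of 795 alternatives of 58 named results, 788 kept direction and call, 7 lost the call and 0 reversed. These results had been picked from the same libraries as the largest called differences without overlap, or as called interactions. Their high share kept follows in part from that choice. Of 179 alternatives of the counts, 160 stayed within 1.5 times. Requiring the coverage class LOW left 118 exons, of which 91 and 89 were called with siSF3B1 in DMSO and 4OHT, 74 with siRBM39 in 4OHT, and 74 and 73 between the knockdowns. A control PSI of 30 to 70 also left 118, with 83 and 85 called with siSF3B1, 72 and 75 with siRBM39, 79 and 80 between knockdowns, and 1 interaction. Both leave fewer exons to count. The range of 30 to 70 used the main fit, whose shares over all exons tested are given above. No share over all exons or genes tested was computed for the other alternatives here and below, so no background stands beside their counts. P_diff called 90 exons with RAS, and 53 and 43 for the siSF3B1 and siRBM39 interactions. The first siRNAs alone gave 30 with RAS, the second 33 and 0 siSF3B1 interactions, and both use fewer libraries. The plain logit of PSI 1 to 99 gave 6 such interactions, 0 of them higher. The cause was not tested. With medians over exons in place of means, the differences were -16.3 and -15.3 points with siSF3B1, -11.5 and -11.0 with siRBM39, and -4.36 with RAS.

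Without each replicate number in turn, chosen as an alternative for the mean after seeing the data, exons called ranged from 133 to 139 and 138 to 145 with siSF3B1, 96 to 107 and 106 to 112 with siRBM39, 43 to 48 with RAS, 119 to 126 and 124 to 130 between knockdowns, and 2 to 3 and 0 to 0 for interactions. Host genes ranged from 114 to 129, 118 to 126, 62 to 86, 73 to 88 and 110 to 130. Mean differences ranged from -13.2 to -12.5, -13.7 to -13.5, -9.45 to -9.15, -9.54 to -9.18 and -2.63 to -2.33 points. With the replicate number as a block, 144, 148, 113, 117 and 51 exons were called, 124 and 132 between knockdowns and 3 and 0 interactions, and 127, 127, 77, 90 and 125 host genes. The numbers do not pair libraries, since 10 of 48 libraries correlated best with their own number.

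Calls lost were PUF60 with siSF3B1 in 4OHT (12.04 points, second siRNAs), SVIL with RAS (-29.5, first siRNAs), the MAP2K7 interaction (-16.1, second siRNAs) and the ZNF207 interaction (-15.8 and -21.1 with the first and second siRNAs, -16.9 without replicate 2 and -18.5 without replicate 3). Exons with as few as 12 reads in a library have imprecise PSI.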
